A study of Mus musculus with 20 samples.

Results

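A group of 7 genes was examined because their reads were scarce in ovarian surface epithelial (OSE) cells kept without estradiol (E2) and frequent in cells kept with it. They are Greb1, Adcy2, Adgrg6, Ano4, Tmem255a, Cd320 and Tacc1, 7 of the 14299 genes in the count table, and they were chosen from these same counts, so their difference between E2 and control cells is described here and not tested. Their name as genes nearly silent without E2 held for 3 of the 7. Greb1, Adcy2 and Adgrg6 had a read in 1, 5 and 1 of 329 control cells. Ano4 had one in 24, Tmem255a in 54, Cd320 in 58 and Tacc1 in 204 of the 329, so the other 4 were already present without E2 and were more frequent with it.

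OSE cells form the single layer of epithelium over the ovary. Primary mouse OSE cultures spent 48 hours in medium freed of hormones, and 100 nM E2 or the ethanol vehicle (0.0002%) was then given for 15 days. The strain, genotype and age of the mice that gave these cultures are not given in the sources used here. Each cell was caught in a site of a Fluidigm C1 chip, whose columns 1 to 10 received the control suspension and 11 to 20 the E2-treated suspension, each through its own inlet, and each column gave 1 3' RNA-seq library. The libraries are the samples here: 10 control libraries of 30 to 36 cells (329 cells) and 9 E2 libraries of 26 to 32 cells (260 cells), column 13 having no cells in the tables. The spread between libraries covers the sampling of cells and the making of libraries, not separate cultures, and E2 treatment cannot be told apart from a difference between the 2 suspensions.

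Estradiol acts mainly through estrogen receptor alpha (Esr1), a nuclear receptor that binds estrogen response elements in DNA and recruits coactivators to nearby genes. Greb1 encodes a chromatin-bound partner of this receptor and is among the best known estrogen-induced genes in breast and uterine cells. Adcy2 encodes an adenylyl cyclase, an enzyme that makes the second messenger cAMP, and Adgrg6 (also called Gpr126) an adhesion G protein-coupled receptor that can raise cAMP. Ano4 belongs to the anoctamins, a family of calcium-dependent membrane channels and lipid scramblases. Cd320 is the receptor by which cells take up cobalamin bound to transcobalamin, Tacc1 a coiled-coil protein that binds microtubule regulators, and Tmem255a a membrane protein whose role is little known.

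In the GRCm38 assembly with GENCODE release M21, Greb1 (ENSMUSG00000036523) lies on the minus strand of chromosome 12 from 16670615 to 16800886, Adcy2 (ENSMUSG00000021536) on the minus strand of chromosome 13 from 68620043 to 68999541, and Adgrg6 (ENSMUSG00000039116) on the minus strand of chromosome 10 from 14402583 to 14545659. Ano4 (ENSMUSG00000035189) is on the same chromosome from 88948994 to 89344762, minus strand. Tmem255a (ENSMUSG00000036502) is on the minus strand of the X chromosome from 38196573 to 38252439, Cd320 (ENSMUSG00000002308) on the plus strand of chromosome 17 from 33843091 to 33849774, and Tacc1 (ENSMUSG00000065954) on the minus strand of chromosome 8 from 25154552 to 25256588. Values are per gene, so exons and UTRs were not separated. Among the members, Tmem255a alone overlapped another gene of the count table, Zbtb33 on the opposite strand, and whether strand was used in counting is not given in the sources used here.

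The promoter windows of Greb1, Adcy2 and Adgrg6, the members almost without reads in control cells, are printed because these genes are described together below. Each window is 300 bases, 250 before to 50 after a RefSeq transcription start on GRCm38.p6, written 5' to 3' on the gene's strand. Capitals mark GGTCA or its reverse complement TGACC, the core element that estrogen receptors recognise.
Greb1, chr12:16800837-16801136, minus strand: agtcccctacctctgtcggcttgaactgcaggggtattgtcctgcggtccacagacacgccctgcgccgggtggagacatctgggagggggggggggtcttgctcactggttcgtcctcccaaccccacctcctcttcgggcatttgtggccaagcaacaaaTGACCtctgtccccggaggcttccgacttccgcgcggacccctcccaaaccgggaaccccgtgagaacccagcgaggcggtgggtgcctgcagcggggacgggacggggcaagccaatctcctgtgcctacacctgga
Greb1, chr12:16757190-16757489, minus strand: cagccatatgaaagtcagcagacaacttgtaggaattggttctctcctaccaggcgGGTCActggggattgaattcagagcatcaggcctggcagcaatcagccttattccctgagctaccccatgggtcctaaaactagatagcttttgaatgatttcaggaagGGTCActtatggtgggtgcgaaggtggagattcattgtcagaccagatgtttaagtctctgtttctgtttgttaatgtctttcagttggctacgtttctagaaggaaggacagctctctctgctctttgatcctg
Adgrg6, chr10:14544987-14545286, minus strand: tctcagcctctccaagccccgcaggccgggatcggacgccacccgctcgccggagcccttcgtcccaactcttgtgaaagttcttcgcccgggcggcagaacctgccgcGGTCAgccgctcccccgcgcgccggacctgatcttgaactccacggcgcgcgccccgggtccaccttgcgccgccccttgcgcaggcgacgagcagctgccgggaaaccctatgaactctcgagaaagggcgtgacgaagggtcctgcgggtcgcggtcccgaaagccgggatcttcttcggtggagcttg
Adcy2, chr13:68999492-68999791, minus strand: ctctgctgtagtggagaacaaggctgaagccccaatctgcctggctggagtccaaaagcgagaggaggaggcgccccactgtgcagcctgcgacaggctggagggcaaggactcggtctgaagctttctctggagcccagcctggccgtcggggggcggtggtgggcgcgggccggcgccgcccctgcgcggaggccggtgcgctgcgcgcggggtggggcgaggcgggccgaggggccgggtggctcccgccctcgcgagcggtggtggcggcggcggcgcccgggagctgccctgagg
The upstream Greb1 window held 1 core element 88 bases before the start, the internal Greb1 window held 2, at 194 and 85 bases before the start, the Adgrg6 window held 1 at 141 bases, and the Adcy2 window held none. In all, 6 of the 7 members had 8 windows in the RefSeq table, and 4 of the 8 held the core element on either strand, as did 40.5% of all 32851 windows. The full palindrome, GGTCA and TGACC with 3 bases between them, was in 0 of the 8 windows and in 0.07% of all windows. The AP-1 motif TGACTCA was in 0 of 8 and in 5.2% of all, and the GC box GGGCGG in 4 of 8 and in 35.7% of all, each searched on both strands. The core element overlaps the palindrome, and a match is a string of letters and not a binding site.

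Greb1 was read in 48 of 260 E2-treated cells (18.5%, exact 95% binomial interval 13.9 to 23.7) and in 1 of 329 control cells (0.304%, 0.0077 to 1.68). The intervals of shares cover the counting of cells only and not the spread between libraries. By library, the share of E2-treated cells with a Greb1 read was lowest at 10.0%, had a median of 18.5% and was highest at 33.3%, and 9 of 10 control libraries had none. Every E2 library was above every control library. The single control read was in a cell of column 4 with 181070 reads. In CPM, counts scaled to the same total for every library sum, scaled by TMM, Greb1 was at 29.9 ± 14.9 (SD, n = 9) with E2, from 13.5 to 56.5, and at 0.0217 ± 0.0686 (n = 10) in control libraries. From 900 reads against 1, the ratio of read rates was 1340 with a 95% counting interval of 239 to 52800. Such an interval takes each read as independent, which PCR reads without molecular identifiers are not. It leaves out the spread between cells and libraries and is too narrow, here and for the ratios of the other members.

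Adcy2 was read in 39 E2-treated cells (15.0%, 10.9 to 19.9) and in 5 control cells (1.52%, 0.495 to 3.51). The E2 libraries spread widely, from 3.23% in column 18, where a single cell carried all 25 reads, through a median of 11.5% to 28.1% in column 12. Control libraries ranged from 0 to 3.23% with 5 of 10 at 0, so the shares touched at their ends. On the CPM scale the groups stood apart, at 21.8 ± 13.5 (n = 9, lowest 4.84) with E2 and 0.157 ± 0.23 (n = 10, highest 0.741) in control libraries. The 632 reads against 7 gave a ratio of 134 (64.6 to 335).

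Adgrg6 was read in 44 E2-treated cells (16.9%, 12.6 to 22.0) and in 1 control cell (0.304%). E2 libraries ranged from 7.41% through a median of 14.8% to 25.9%, all above the 1 control library that was not at 0, which had 2.86%. The level was 22.1 ± 13.6 CPM (n = 9) with E2 and 0.106 ± 0.335 CPM (n = 10) in control libraries. Column 15 had the highest level, 52.7 CPM, although only 2 of its 27 cells had a read, because 1 cell carried 175 of the 181 reads. Without that library the mean was 18.3 ± 7.75 CPM, an alternative added after the values were seen. The 656 reads against 5 gave a ratio of 195 (83.0 to 602).

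The 7 control cells with a read of Greb1, Adcy2 or Adgrg6 were 7 different cells, in columns 2, 4, 5, 6, 7 and 10, with 1 to 5 reads each. Among E2-treated cells with a read, the median was 14 reads for Greb1, 12 for Adcy2 and 8 for Adgrg6, and 18.8%, 23.1% and 18.2% of those cells held a single read. When each cell was thinned to 20000 reads, the share of E2-treated cells with a read was 12.7% for Greb1, 10.4% for Adcy2 and 11.5% for Adgrg6, and in control cells 0%, 0.912% and 0.304%. Control cells were the deeper ones, with a median of 128970 reads against 110870 in E2-treated cells. Mitochondrial reads made up a median of 2.27% in the former and 2.54% in the latter.

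**Figure D1:**
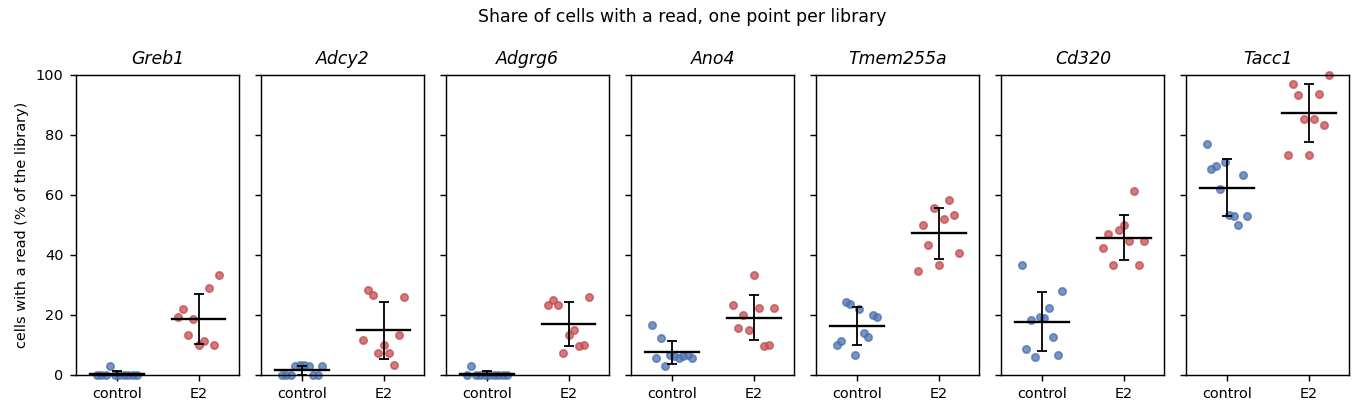
Percent of the cells of a library with at least 1 read of each member, with 1 point per library (blue, 10 control libraries; red, 9 E2 libraries), the line at the mean and the bar 1 SD (cut at 0 below). Greb1 and Adgrg6 sit at 0 in 9 of 10 control libraries, while Tacc1 is read in 50.0% to 76.7% of control cells.

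Ano4 lay between the groups. It was read in 49 E2-treated cells (18.8%, 14.3 to 24.1) and in 24 control cells (7.29%, 4.73 to 10.7), and it was the only member whose library levels overlapped between conditions. Control libraries ran from 0.427 to 5.46 CPM (mean 2.12 ± 1.83, n = 10) and E2 libraries from 4.82 to 51.2 CPM (26.7 ± 13.8, n = 9), with the lowest E2 value in column 18. Control cells with an Ano4 read had a median of 2 reads of it, against 11 in E2-treated cells. The 745 reads against 95 gave a ratio of 11.6 (9.39 to 14.6).

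Tmem255a was read in 123 E2-treated cells (47.3%, 41.1 to 53.6) and in 54 control cells (16.4%, 12.6 to 20.9). Shares ran from 34.6% to 58.1% (median 50.0%) in E2 libraries and from 6.45% to 24.2% (median 16.6%) in control libraries, without overlap. The E2 level of 111 ± 102 CPM (n = 9) rested on column 15, which was at 381 CPM against 57.3 to 96.1 CPM in the other 8 libraries, and without it the mean was 76.9 ± 13.7 CPM. Control libraries were at 12.4 ± 6.19 CPM (n = 10, highest 24.1). The excess in column 15 was spread over several cells: its 15 cells with a read averaged 87.2 reads each, against 11.9 to 23.5 in the other E2 libraries, and 5 of them held over 100 reads, which no cell of the other E2 libraries did. Zbtb33, the gene on the other strand, had 0 reads in that library.

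Cd320 was read in 119 E2-treated cells (45.8%, 39.6 to 52.0) and in 58 control cells (17.6%, 13.7 to 22.2). Column 1, a control library, had 36.7% and met the lowest E2 libraries, columns 14 and 19, at the same share, while the median E2 library was at 44.4% and the median control library at 18.5%. In CPM the groups did not overlap, with 116 ± 24.7 (n = 9, 87.6 to 162) against 22.4 ± 9.83 (n = 10, 5.63 to 33.4), a ratio of read rates of 4.98 (4.64 to 5.35). The ratio of mean library levels was 5.19 and that of mean shares 2.58, so reads per cell with a read also differed on average. By the median, a cell with Cd320 held 19 reads with E2 and 17 without. On that measure the conditions differed in how many cells had a read more than in reads per such cell.

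Tacc1 went the other way in that respect. It was read in 227 E2-treated cells (87.3%, 82.6 to 91.1) and 204 control cells (62.0%, 56.5 to 67.3), and cells with a read held a median of 25 reads against 5. Shares overlapped, from 73.1% to 100% in E2 and from 50.0% to 76.7% in control libraries. Levels did not, at 277 ± 52.9 CPM (n = 9, 206 to 357) and 61.0 ± 16.6 CPM (n = 10, 41.0 to 89.8). Estimated counts of Tacc1 were more than 0.01 from a whole number in 104 cells, and none of these rounded to 0.

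**Figure D2:**
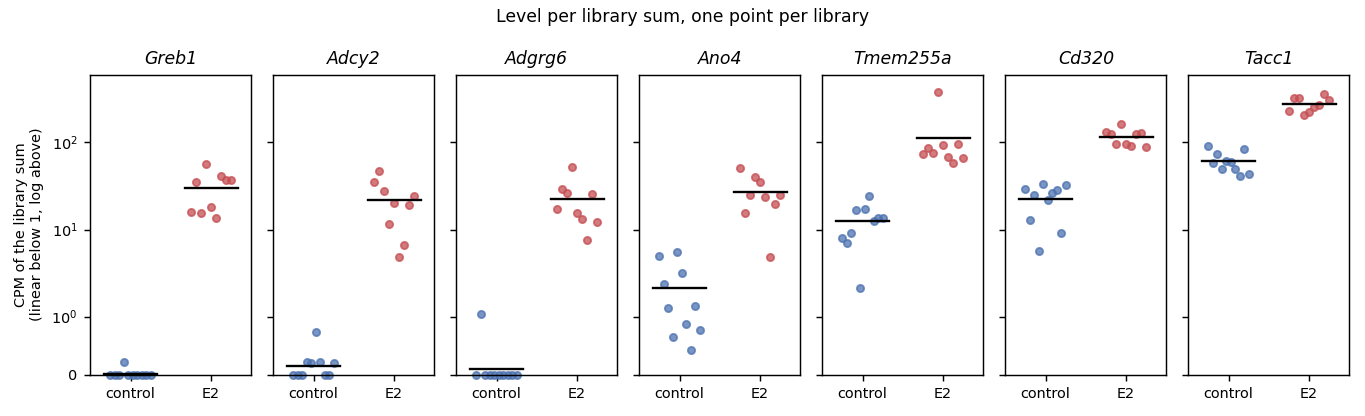
CPM of the library sum of each member, on an axis that is linear below 1 and logarithmic above, with 1 point per library (blue, control; red, E2) and the line at the mean. E2 and control libraries overlap for Ano4, and column 15 stands at 381 CPM for Tmem255a.

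Counted over the members, 6 of 7 had every E2 library above every control library in CPM, as had 0.238% of all 14299 genes, and 3 of 7 (Greb1, Adgrg6 and Tmem255a) in the share of cells, as had 0.0769%. In the sums of responsive cells alone it was again 6 of 7, beside 0.273% of 10266 genes. By the difference in percentage points between conditions, Tmem255a ranked 6, Cd320 9, Tacc1 15, Greb1 38, Adgrg6 45, Adcy2 70 and Ano4 93 of 14299 genes. The edgeR fit over the library sums of responsive cells used the contrast by which the members were chosen, so that all 7 passed its limits is no test of them. Of all 10266 genes, 0.847% were called higher and 1.37% in either direction. Calls needed a Benjamini-Hochberg adjusted p under 0.05 with a log2 fold change beyond 0.5 in either direction, and responsive cells are the larger of the clusters that the authors' SC3 labels give at k = 2, with 203 control and 218 E2-treated cells. The fitted log2 fold changes were 3.36 (SE 0.58) for Ano4, 3.49 (0.51) for Tmem255a, 2.85 (0.32) for Cd320 and 1.95 (0.16) for Tacc1. For Greb1, Adcy2 and Adgrg6, with 1, 4 and 5 reads in responsive control cells, the fitted value depends on the prior count. The ratios of read rates in responsive cells stand in its place, at 1020 (183 to 40400), 180 (69.8 to 661) and 149 (63.5 to 460). The ratios given above are over all cells.

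Few other genes had a like pattern of detection. Of 14299 genes, 695 had a read in at most 2% of control cells, and 6 of them in at least 10% of E2-treated cells: Greb1, Adgrg6, Adcy2, Pknox2, Scrg1 and Kank3. The reverse pattern, at most 2% of E2-treated and at least 10% of control cells, had 1 gene, Hapln4. The balance depended on the limit, since at 5% in place of 2% the pattern had 14 genes and its reverse 35. Pknox2, a homeodomain transcription factor, was read in 6 control and 29 E2-treated cells, Scrg1 in 4 and 28, and Kank3, a regulator of the actin cytoskeleton, in 6 and 27. None of these 3 was called in the E2 fit of responsive cells (adjusted p 0.184, 0.298 and 0.177). After thinning, the 3 members were the only genes that met both limits. They were chosen from these same counts, so this is no test of them. It also rests on a single random thinning, in which Adcy2 was at 10.4% of E2-treated cells, just over the limit.

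In E2-treated cells, most reads of the nearly silent members were in responsive cells. The other k = 2 cluster, called unresponsive in the study, held 126 control and 42 E2-treated cells, and it had 1 Greb1 read in its 168 cells. Among its E2-treated cells, Greb1 and Adgrg6 were each read in 1 of 42 and Adcy2 in 0 of 42 (3 cells, taken as the limit of a count of 0, would be 7.14% of cells with a read), against 21.6%, 19.7% and 17.9% of the 218 responsive E2-treated cells. In control cells Adcy2 was read in 3 of 126 unresponsive (2.38%) and 2 of 203 responsive cells (0.985%). Among E2-treated cells, Ano4 was read in 7.14% of the unresponsive and 21.1% of the responsive ones. Tmem255a was read in 28.6% and 50.9% of these E2-treated cells, Cd320 in 26.2% and 49.5%, and Tacc1 in 59.5% and 92.7%. Unresponsive E2-treated cells were shallower, with a median of 87620 reads against 117794, and had more mitochondrial reads, 3.55% against 2.43%. The clusters were made from values that include these genes, so this is a description and not a test.

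Cd320 and Tmem255a differed from Tacc1 in control cells. Cd320 was read in 21.4% of unresponsive and 15.3% of responsive control cells and Tmem255a in 18.3% and 15.3%, whereas Tacc1 was read in 39.7% and 75.9%. After thinning to equal depth the Tacc1 shares were 18.3% and 47.8%. Unresponsive cells were 126 of 329 control and 42 of 260 E2-treated cells, so values over all cells join the clusters in unlike parts. Responsive cells with a Tacc1 read held a median of 8.5 reads in control and 31 with E2. The ratio of read rates in responsive cells was 3.82 for Tacc1 and 7.14 for Cd320, against 4.49 and 4.98 over all cells.

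**Figure D3:**
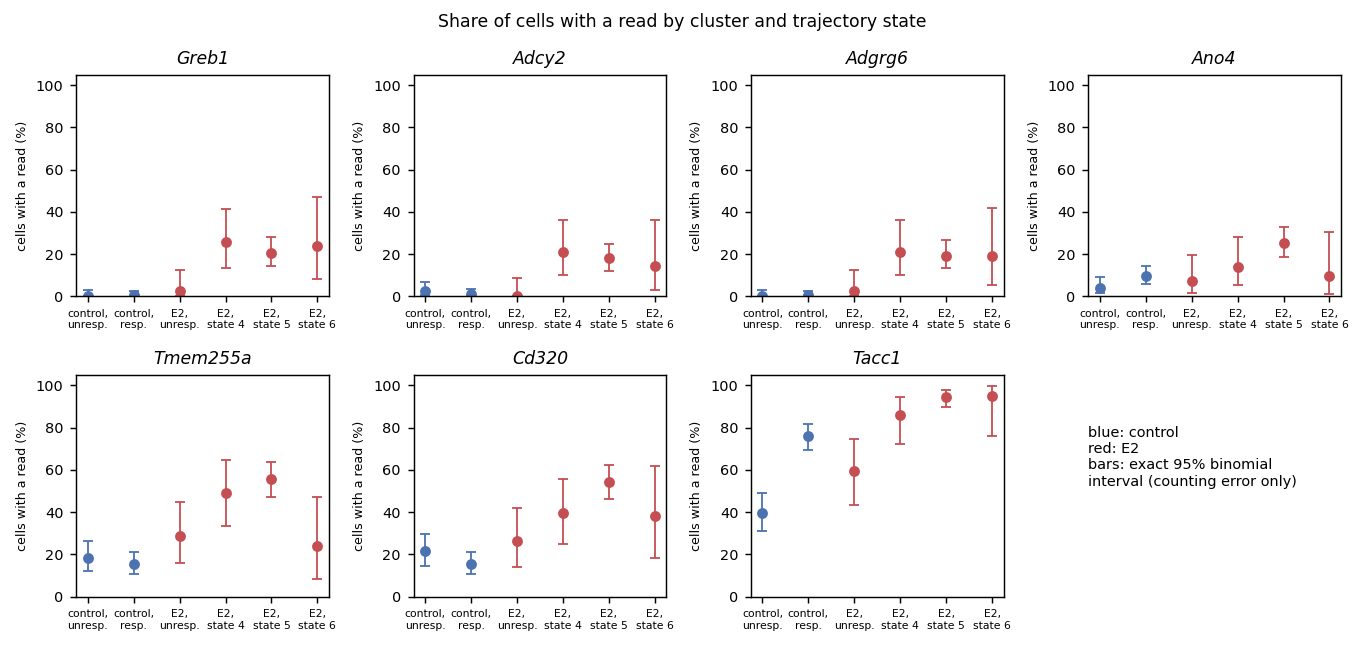
Percent of cells with a read of each member in unresponsive and responsive control cells (blue) and in unresponsive E2-treated cells and the E2-treated cells of trajectory states 4, 5 and 6 (red), with exact 95% binomial intervals. Greb1, Adcy2 and Adgrg6 are near 0 in the first 3 groups and between 14.3% and 25.6% in the states of the E2 branch.

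With 3 clusters, all but 1 of the 206 cells of cluster 2 were control cells, and the 218 cells of cluster 3 were E2-treated. The single E2-treated cell of cluster 2 held 11 reads of Adgrg6 and 13 of Ano4 and none of the other members. The monocle trajectory deposited by the authors placed most E2-treated cells in states 4 (43 cells), 5 (151 cells) and 6 (21 cells). Greb1 was read in 25.6%, 20.5% and 23.8% of them, Adcy2 in 20.9%, 17.9% and 14.3%, and Adgrg6 in 20.9%, 19.2% and 19%. At equal depth the shares were 18.6%, 15.2% and 9.52% for Greb1, 16.3%, 11.9% and 9.52% for Adcy2 and 6.98%, 13.9% and 19% for Adgrg6, and no difference between states was tested. Ano4 had 14%, 25.2% and 9.52%, Tmem255a 48.8%, 55.6% and 23.8%, Cd320 39.5%, 54.3% and 38.1%, and Tacc1 86.0%, 94.7% and 95.2%.

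State 4 also held 21 control cells, and there the conditions could be set side by side on a single stretch of the trajectory. None of the 21 had a read of Greb1, Adcy2 or Adgrg6, where 3 cells would be 14.3%, a limit on cells with a read and not on cells expressing the gene, while 11, 9 and 9 of the 43 E2-treated cells had. Cd320 was read in 1 of 21 control cells (4.76%, 0.12 to 23.8) and 17 of 43 E2-treated cells, and Tmem255a in 5 of 21 (23.8%) and 21 of 43. Ano4 was read in 2 of 21 control cells (9.52%) and 6 of 43 E2-treated cells, and at equal depth in 9.52% and 9.3%. Tacc1 was read in 15 of 21 (71.4%) and 37 of 43. Only 1 control library had at least 3 cells in state 4, so a spread between control libraries cannot be given there. Median depth was close, at 118353 and 112406 reads, but the control cells lay earlier, at a median pseudotime of 40.9 against 47.9.

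When the E2-treated responsive cells were put into an early, a middle and a late group of 73, 72 and 73 cells by pseudotime, Cd320 was the member whose share moved most, at 39.7%, 38.9% and 69.9% (58.0 to 80.1 in the late group). Thinned to equal depth it was at 30.1%, 29.2% and 58.9%. Tmem255a was read in 39.7%, 55.6% and 57.5%, and Tacc1 in 87.7%, 91.7% and 98.6%. Greb1 had 24.7%, 18.1% and 21.9%, Adcy2 19.2%, 15.3% and 19.2%, Adgrg6 17.8%, 22.2% and 19.2%, and Ano4 16.4%, 26.4% and 20.5%, with intervals that overlapped between all groups. Pseudotime was computed from values that include these genes, so these shares carry no test.

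Within E2-treated responsive cells, the cells with reads of both members of a pair were set beside the number that independent reading within each library would give. Tacc1 was read in 92.7% of these cells, so its pairs could hardly exceed that number. Their ratios of observed to expected cells ran from 0.981 to 1.04 and hold the median of all pairs near 1. Of the 21 pairs, 16 were found in more cells than expected and 5 in fewer, with a median ratio of 1.04 of observed to expected cells and a range of 0.835 to 1.43. Greb1 and Adgrg6 shared 14 cells where 9.8 were expected, Adcy2 and Ano4 12 where 8.39 were, and Adgrg6 and Ano4 13 where 9.6 were. Ano4 and Cd320 shared 19 where 22.8 were expected. Pearson's r of the presence of reads over the 218 cells ran from -0.0852 to 0.15. Cells with a read were deeper on average, for Greb1 at a median of 133566 reads against 113697 without. After thinning 14 of 21 pairs were above expectation with a median ratio of 1.04. With detection at 2 reads or more it was 17 of 21 pairs and a median of 1.1. Over all E2-treated cells, which join both clusters, it was 19 of 21 and 1.12.

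At least 1 of Greb1, Adcy2 and Adgrg6 was read in 99 of the 218 cells (45.4%), where 104 were expected, 22 cells held exactly 2 of them and 4 cells all 3, where 21 and 2.19 were expected. So 119 E2-treated responsive cells had no read of the 3 genes at this depth. Over all 7 members, E2-treated responsive cells held 2.73 members on average and control responsive cells 1.18. A read of at least 4 members was found in 59 E2-treated responsive cells (27.1%, 51.3 expected) and in none of the 203 responsive control cells. Among the 126 unresponsive control cells, 2 held reads of 4 members (0.129 expected). Exactly 6 were read in 4 E2-treated cells, and no cell held reads of all 7.

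**Figure D4:**
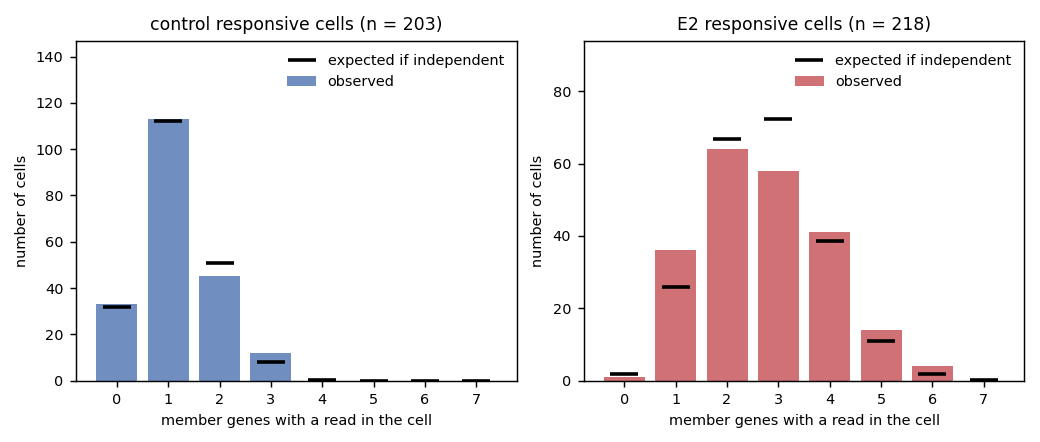
Number of cells (bars) by how many of the 7 members had a read in the cell, for 203 control and 218 E2-treated responsive cells, with black marks at the number expected if members were read independently within each library. Responsive control cells stop at 3 members and responsive E2-treated cells at 6.

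Values smoothed over similar cells gave another picture of the same cells. The authors' imputed values, on a log scale taken as log2, were above 0 in all 218 E2-treated responsive cells for every member, whether or not the cell had a read. For Greb1 the median imputed value was 0.564 in the 47 cells with a read and 0.485 in the 171 cells without, and 80.3% of the 218 cells were above every control cell. Pairs of members correlated across these cells at r of 0.443 to 0.847 (median 0.612) in imputed values and at -0.116 to 0.139 (median 0.0418) in log2 (CPM + 1) of the counts. The imputation shares values between neighbouring cells, and both sets of r are over the same 218 cells.

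**Figure D5:**
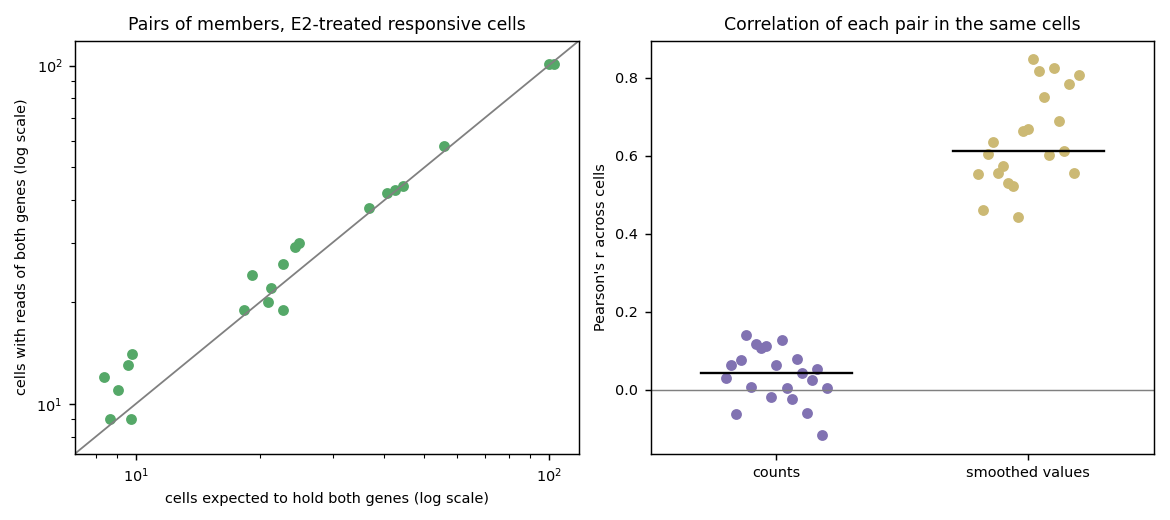
Left, for each of the 21 pairs of members, E2-treated responsive cells with reads of both genes against the number expected if independent within libraries, on log axes with the line of equality. Right, Pearson's r of each pair across the 218 cells in counts (median 0.0418) and in the authors' smoothed values (median 0.612), with lines at the medians.

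Splits of the E2-treated responsive cells by a read of 1 gene were fitted over all genes, with the library as a term. Co-detection was among the measures named with the members when they were chosen, so their own values in these fits are a description. In cells with a Greb1 read against those without (47 and 171 cells, 9 libraries), edgeR called 0 of 8049 genes (0.0%), 427 had an unadjusted p below 0.05, and DESeq2 called 56. None of the other 6 members was called, with adjusted p from 0.857 to 0.975. Ano4 had a log2 fold change of -2.60 (SE 1.19, adjusted p = 0.857), which was -0.57 (SE 0.90, adjusted p = 0.999) without the library term, with a read in 19.1% of cells with Greb1 and 21.6% of cells without. Adgrg6 was read in 29.8% and 17% (log2 fold change -1.19, SE 1.14, adjusted p = 0.88), and Cd320 in 63.8% and 45.6% (-0.24, SE 0.39, adjusted p = 0.931). The median log2 fold change over all genes in this fit was -0.36, and the sums of cells with a Greb1 read held fewer cells than those without. The SE ran from 0.28 to 1.45 for the other members, so differences of several fold may have gone unseen for the rarest.

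The same split by each other member called 0 genes with edgeR: 0 of 8292 for Adcy2, 8071 for Adgrg6, 7713 for Ano4, 8485 for Tmem255a, 8277 for Cd320 and 7866 for Tacc1 (0.0% each), with 147 to 405 genes at an unadjusted p below 0.05. DESeq2 called 21, 67, 91, 16, 2 and 2. No other member was called by edgeR in any of them, where the lowest adjusted p was 0.881, nor by DESeq2 where it gave an adjusted p. The Tacc1 split rested on 2 libraries, since few cells lacked a read of it. Splitting by a read of Esr1 (57 and 161 cells) called 0 of 8070 genes (0.0%) with edgeR, 339 at an unadjusted p below 0.05 and 39 with DESeq2, and no member (adjusted p from 0.967 to 0.993). Greb1 was read in 29.8% of cells with an Esr1 read and 18.6% of those without, Adcy2 in 24.6% and 15.5%, and Ano4 in 31.6% and 17.4%. Cd320 was read in 61.4% and 45.3% and Tacc1 in 98.2% and 90.7%, but Adgrg6 in 19.3% and 19.9% and Tmem255a in 49.1% and 51.6%. Cells with an Esr1 read were deeper, at a median of 130617 reads against 112949. Esr1 itself was read in 20.2% ± 6.13 (n = 10) of control and 23.4% ± 9.46 (n = 9) of E2-treated cells per library.

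Other genes of the members' families and pathways were read from the same fit of E2 against control in responsive cells, in which 1.37% of all genes were called. Of 15 other estradiol-induced genes tested, 2 were higher, Fos (log2 fold change 0.69, SE 0.15, adjusted p = 0.00882) and the keratin Krt19 (0.62, SE 0.13, adjusted p = 0.00977), and 1 was lower, complement C3 (-0.85, SE 0.14, adjusted p = 0.000496), with a median of 0.40 beside 0.02 over all genes. Igfbp4 (0.33, adjusted p = 0.106), Slc9a3r1 (-0.30, adjusted p = 0.301) and Ctsd (-0.36, adjusted p = 0.314) did not pass. Among estrogen receptors and cofactors 0 of 11 were called (median -0.08), including Ncor1, Crebbp and Ncoa1 at 0.12, -0.16 and 0.69, and Esr1 was at -0.41 (SE 0.43, adjusted p = 0.871).

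Of 10 other adhesion G protein-coupled receptors, 2 were higher with E2 beside Adgrg6. Adgrg2 was at 65.1 ± 26.6 CPM in 10 control and 174 ± 120 CPM in 9 E2 sums (log2 fold change 1.42, SE 0.31, adjusted p = 0.0117). Adgrg1 was at 11.4 ± 10.4 and 50.8 ± 32.3 CPM (2.14, SE 0.53, adjusted p = 0.0359), and its call was lost at equal depth (adjusted p = 0.102) and with any of control columns 3, 4, 6, 7, 9 and 10 or E2 columns 11, 12, 18 and 20 left out, with adjusted p up to 0.108. Adgrf4, Adgra3 and Celsr1 were at 0.81, 0.75 and 0.29 and did not pass (adjusted p 0.0718, 0.343 and 0.899).

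No other gene was called among 2 adenylyl cyclases, Adcy6 (-0.15) and Adcy9 (0.46), or 18 cAMP signalling genes (median -0.09), of which Gnas, Prkar1a and Gnai2 had log2 fold changes of -0.06, 0.18 and -0.08. The same held for 2 anoctamins, Ano6 (-0.14) and Ano10 (0.07), for 7 other TACC proteins and partners (median 0.03, with Cltc at 0.03, Lsm7 at -0.31 and Tacc2 at -0.18), and for 12 genes of cobalamin uptake and use (median 0.18, with Mmachc at 0.24, Tcn2 at 0.11 and Lmbrd1 at -0.10). Tmem255b was not in the table.

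The genes whose levels were most like the members' over the 19 responsive library sums were Lpl, a lipoprotein lipase (r = 0.959 with Greb1 and 0.956 with Adgrg6), the lysosomal protein Creg1 (0.946 with Greb1, 0.934 with Cd320), the protease Ctsh (0.925 with Adcy2, 0.879 with Ano4, 0.935 with Tacc1), Pank3 (0.932 with Tmem255a), Igfbp5 (0.925 with Tacc1) and Esyt2 (0.839 with Ano4). These r are on log2 (CPM + 1) and join 10 control and 9 E2 sums, which stand apart for each member but Ano4, so they describe a shared difference between conditions.

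Library sums held 3867119 to 5077443 reads in control and 2692669 to 4037154 in E2 libraries. OSE markers, 9 of 10 in the table, summed to 5260 to 6500 CPM (median 5980) in control and 4170 to 6010 CPM (median 5080) in E2 libraries, with a median log2 fold change of -0.30, 7 of 9 below 0 and 1 called, Krt19. The granulosa markers Fshr, Amh, Cyp19a1 and Foxl2, the theca markers Cyp17a1, Lhcgr and Hsd3b1 and the endothelial markers Cdh5, Tek and Emcn were at 0 or not in the table. Other markers of these lists had reads. The granulosa marker Inha was read in 23.7% of control and 23.8% of E2-treated cells, and Nr5a1 in 31.3% and 24.2%. The theca marker Star was read in 48.0% and 31.9%, Cyp11a1 in 3.65% and 1.54%, and the endothelial marker Pecam1 in 100% of both. Leukocyte markers summed to 13.4 to 86.1 CPM over all libraries, with Adgre1 and Lyz2 at 0 or not in the table. Of the others, Cd68 was read in 37.1% of control and 30.4% of E2-treated cells, Ptprc in 7.9% and 11.2%, and Cd3e in 1.82% and 2.69%. Stromal fibroblast markers summed to 2180 to 3060 CPM in control and 1790 to 4490 CPM in E2 libraries, granulosa markers to 23.5 to 96.6 CPM, theca markers to 14.3 to 207 CPM, smooth muscle markers to at most 35.7 CPM, endothelial markers (1 of 4 in the table) to 393 to 725 CPM, and oviduct markers to 53.3 to 107 CPM, and their part in the levels of the members was not tested. The 40 capture-site barcodes were each used in 10 to 19 of the 19 libraries, which the chip's layout gives.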

How the data were processed

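Single OSE cells from 10 control and 9 E2 columns of a Fluidigm C1 chip were sequenced. The authors quantified reads with kallisto 0.44.0 against GRCm38, summed them to genes with tximport, filtered cells and genes with scater, and deposited estimated counts per gene and cell, of which 66.9% of the values above 0 were exactly whole. They also deposited imputed values on a log scale, taken as log2, made by scran scaling and MAGIC, and, per cell, the percent of mitochondrial reads, a monocle pseudotime score and state, and SC3 clusters.

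Estimated counts were rounded. A gene was detected in a cell at 1 read. For equal depth each cell was thinned to 20000 reads. Sums per library of at least 3 cells were fitted with edgeR 4.0.16 in R 4.3.3 (TMM, filterByExpr, quasi-likelihood test, Benjamini-Hochberg adjustment). The SE beside an edgeR log2 fold change is its absolute value divided by the square root of the test's F, so it is approximate. Alternatives were DESeq2 1.42.0, limma-voom (limma 3.58.1), no gene filter, thinned cells, other cell sets, other detection limits and leaving out each library. Expected co-detection was summed over libraries. Where no cell had a read, the upper limit given is what 3 such cells would be. Promoter windows came from RefSeq.

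The members and all gene lists were chosen with earlier results of these data known. Named genes are the members and Esr1, called genes of each list and up to 3 others with the highest CPM, genes read in at most 2% of control cells and at least 10% of E2-treated cells, and the genes with the most similar levels to each member, up to 2 a member. No difference in level between members is given, and nothing says that libraries came from separate cultures.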

Additional observations from a re-analysis of the deposited data

Results flagged for a closer look

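Among 30 sets of library values (shares and levels of the members and Esr1 in 10 control or 9 E2 libraries), 7 had a highest library far from the nearest other by Dixon's criterion. Chance flags about 1 in 20 such sets, a rate that does not hold where most libraries are at 0 and a single read is enough, as in 4 of the 7. Tmem255a in E2 libraries was at 381 CPM in column 15, and the nearest other library was at 96.1 CPM. Adgrg6 in E2 libraries was at 52.7 CPM in the same column, where 1 cell held 175 reads, with the nearest other at 29.1 CPM. The other 5 came from control libraries in which 1 cell had a read while all or most other libraries were at 0. These were Greb1 in column 4 (2.94% of cells and 0.217 CPM), Adgrg6 in column 2 (2.86% of cells and 1.06 CPM) and Adcy2 in column 6, at 0.741 CPM from 3 reads of 1 cell against 0.219 CPM in the nearest other library.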

How the results depend on the processing

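At 20000 reads per cell Greb1, Adcy2, Adgrg6 and Ano4 had too few reads to enter the E2 fit. The count of called genes in that fit over all reads was 141, and 233 with DESeq2, and it ran from 106 to 141 when a library was left out. In the splits of E2-treated responsive cells edgeR called 0 genes, while DESeq2 called 39 for Esr1, 56 for Greb1, 21 for Adcy2, 67 for Adgrg6, 91 for Ano4, 16 for Tmem255a, 2 for Cd320 and 2 for Tacc1. With all E2-treated cells edgeR called 3 for Greb1, 1 for Adcy2, 2 for Adgrg6 and 1 for Cd320, and without the gene filter 3 for Tacc1. Without the library as replicate block each split still gave 0 calls, and Adcy2 in the Greb1 split turned from -1.50 to 0.0745. At 20000 reads per cell Tmem255a and Cd320 in that split turned to 0.0212 and 0.0933, uncalled as before. Over the 8 splits, 13 of 49 values of other members changed sign without the block, none called either way. The cause of these shifts was not tested. No paired analysis was possible, since control and E2 columns were drawn from separate suspensions and nothing matches a column of either to the other.

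At 20000 reads per cell the shares fell to 3.44% for Ano4, 9.88% for Tmem255a and 36.6% for Tacc1 in control libraries, and to 34.9% for Tmem255a, 35.9% for Cd320 and 73.8% for Tacc1 in E2 libraries, fewer reads being drawn. The Tacc1 share in control libraries was 47.7% at 2 reads or more and 75.8% in responsive cells. The 6 genes rarely read in control and often in E2-treated cells became 3 after thinning, 2 at a limit of 1% and 14 at 5%, where 35 genes had the reverse pattern. Levels without E2 column 15, added after seeing the data, ranged from 18.3 CPM for Adgrg6 to 286 CPM for Tacc1, and Tmem255a went from 111 ± 102 to 76.9 ± 13.7 CPM. Of 548 values recomputed in all, 509 were counted as unchanged, by 3 rules. Log2 fold changes had to keep their direction and side of the threshold, and shares and levels to move by no more than the SD. Counts of genes or pairs and the ratios of pairs had to stay within a fixed factor. Of the 548, 296 were log2 fold changes of the E2 fit, many for members chosen by that contrast, so the total is no test of them. Depth limits the rarest members, since a cell without a read may still express the gene.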
